A study of Mus musculus with 10 samples.

Results

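Calcium- and sodium-activated potassium channels were followed in mouse dorsal root ganglia (DRG) through 10 genes, chosen by name as the rows whose gene symbol is Kcnma1, Kcnmb1, Kcnmb2, Kcnmb4, Kcnn1, Kcnn2, Kcnn3, Kcnn4, Kcnt1 or Kcnt2, out of 54309 annotated genes. All 10 had reads in every library and passed the filter on low counts. The study asked how the response of DRG to nerve injury differs between the sexes. The groups were female axotomy (3 libraries), female sham (2), male axotomy (3) and male sham (2), all from C57BL/6 mice of 6 to 8 weeks with no transgene. In axotomy the left sciatic nerve was cut at mid-thigh, in sham it was exposed and left intact, and the lumbar DRG of the same side were taken 24 h later from every animal. Each library pools DRG of 2 mice, so replicate spread here is the spread between pools, and the p values measure only that spread.

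A DRG holds the cell bodies of sensory neurons with their satellite glia, Schwann cells, vessels and immune cells. The channels of these genes let potassium out of the cell when calcium or sodium has risen inside it, and so shape the end of the action potential, the hyperpolarization after it and the rate of repetitive firing. Kcnma1 encodes the pore of the BK channel, which opens with both calcium and depolarization, and Kcnmb1, Kcnmb2 and Kcnmb4 encode its auxiliary beta subunits. Kcnn1, Kcnn2 and Kcnn3 encode the SK channels and Kcnn4 the IK channel, which sense calcium through bound calmodulin. Kcnt1 (Slack) and Kcnt2 (Slick) encode the sodium-activated channels. Loss of Slack is known to make mouse sensory neurons more excitable.

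Poly-A RNA was sequenced to 55258476 to 90111671 estimated read pairs per library, and the lowest member, Kcnn3, still had 164 to 426 of them. Sex labels were checked with Xist, at 0.377 to 2.47 CPM in male axotomy and 0.238 to 0.541 CPM in male sham libraries, against 369 to 432 CPM in female axotomy and 291 to 322 CPM in female sham libraries. The injury label was checked with Atf3, at 463 to 596 CPM in female axotomy against 90.7 to 126 CPM in female sham, and 369 to 697 CPM in male axotomy against 76.7 to 86.0 CPM in male sham. Male axotomy libraries differed most among themselves, where pairs that include replicate 2 had a chi-square of 71.3 and 108 per degree of freedom, against 7.32 to 33.8 for the other pairs of the 4 groups. In males, the summed CPM of most marker lists was higher in every axotomy than in every sham library. The lists of sensory neurons, endothelium and skeletal muscle were the exceptions. Among the higher lists were 8 fibroblast and meningeal markers (995 to 1962 against 701 to 744 CPM) and 9 macrophage markers (107 to 206 against 54.3 to 57.9 CPM). In females the sum was likewise higher for macrophages (83.6 to 107 against 68.4 to 82.9 CPM), T and NK cells, smooth muscle and pericytes, and CNS glia and interneurons. A higher sum does not mean that each marker rose. In males all 9 macrophage markers were called higher, but 1 of 7 neutrophil and monocyte markers was. The 12 sensory neuron markers summed to 9420 to 9813 CPM in female axotomy and 9597 to 9844 CPM in female sham, and to 8186 to 9605 CPM in male axotomy and 9941 to 10340 CPM in male sham. Of these markers, 1 was higher and 2 lower after axotomy in females, and 8 were lower in males. In bulk RNA, fewer cells of a type and less RNA per cell cannot be told apart.

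The level of the 10 genes spanned a wide range. TPM is a relative abundance scaled by transcript length and library, and allows genes to be compared with each other. Over the 10 libraries Kcnt1 had a mean of 85.3 TPM, which was 39.3% of the sum over all 10 genes. It was followed by Kcnmb4 (44.3 TPM), Kcnn1 (24.1 TPM), Kcnma1 (19.3 TPM), Kcnmb1 (16.8 TPM), Kcnn4 (10.3 TPM), Kcnn2 (6.97 TPM), Kcnt2 (4.54 TPM), Kcnmb2 (4.28 TPM) and Kcnn3 (1.21 TPM). Only the steps from Kcnmb4 to Kcnn1 and from Kcnmb2 to Kcnn3 exceeded the spread of the libraries; at each other step the ranges of neighbouring genes over the 10 libraries overlapped. This order pools axotomy and sham libraries and did not hold in each group. In sham libraries Kcnmb1 averaged above Kcnma1 (22.2 against 19.8 TPM in females, without overlap, and 22.1 against 21.7 TPM in males), and in male axotomy 1 Kcnmb4 (51.3 TPM) was above Kcnt1 (46.9 TPM). Among all genes tested, Kcnt1 stood at percentile 90.6 of mean TPM and Kcnn3 at percentile 27.3.

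Part of these levels lies in transcripts that are not annotated as protein coding. For Kcnt1, coding transcripts held 34.8% to 42.0% of its TPM, and a retained-intron transcript of 795 bases (Kcnt1-214) held 29.7% on average. With coding transcripts alone Kcnt1 averaged 32.4 TPM (19.7 to 44.3) and Kcnmb4 41.4 TPM (32.8 to 54.4), ranges that overlap in the other order. For Kcnn3, a retained-intron transcript of 8314 bases held 70.3% on average and the coding transcript left a mean of 0.38 TPM. Coding transcripts held at least 79.1% of the TPM in each library for the other 8 genes. Kcnmb1 has a single annotated transcript.

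**Figure D1:**
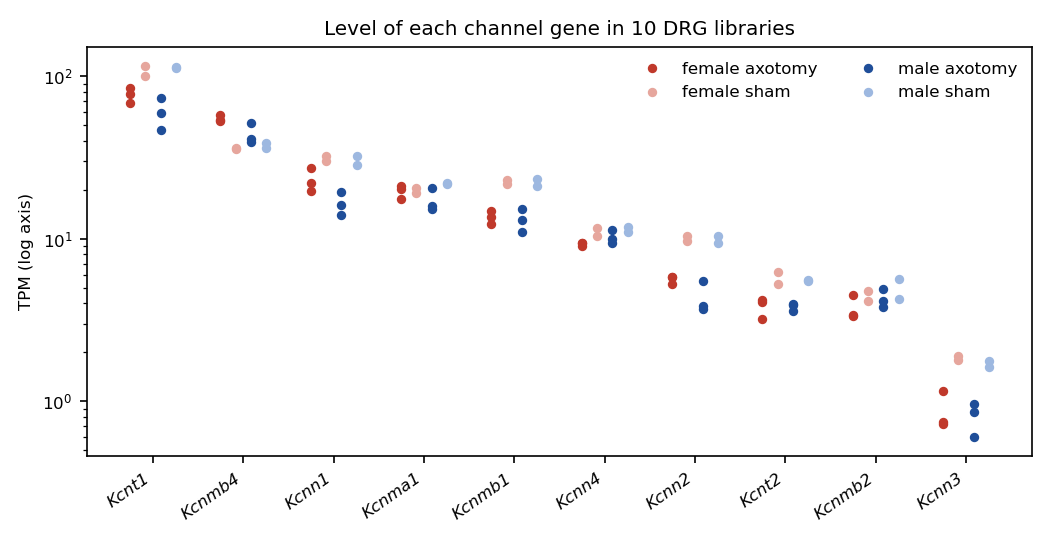
Level of each gene in TPM (log axis) in each library, 1 point per library, with genes ordered by their mean over the 10 libraries and groups drawn as female axotomy, female sham, male axotomy and male sham. Kcnt1 lies between 46.9 and 116 TPM and Kcnn3 between 0.597 and 1.9 TPM.

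Axotomy lowered 6 of the 10 genes in females and in males, the same 6 genes, and raised 1, Kcnmb4. The genes that fell were the beta subunit gene Kcnmb1, the SK genes Kcnn1, Kcnn2 and Kcnn3, and the Slack and Slick genes Kcnt1 and Kcnt2. The pore gene of BK, Kcnma1, the beta subunit gene Kcnmb2 and the IK gene Kcnn4 did not pass the threshold in either sex. A gene is called here at an adjusted p (padj) under 0.1 by edgeR's quasi-likelihood test over all 20836 genes tested. Of all genes tested, 9.7% were called lower and 10.5% higher in females, and 19.4% lower and 22.6% higher in males. The calls in both sexes cover 7.47% of all genes as lower and 8.09% as higher. The median log2FC of the 10 genes was −0.36 in females and −0.44 in males, beside −0.001 and 0.04 over all genes. The axotomy and sham ranges did not overlap for 8 of the 10 genes in females and 7 in males, beside 52.2% and 57.7% of all genes tested.

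**Figure D2:**
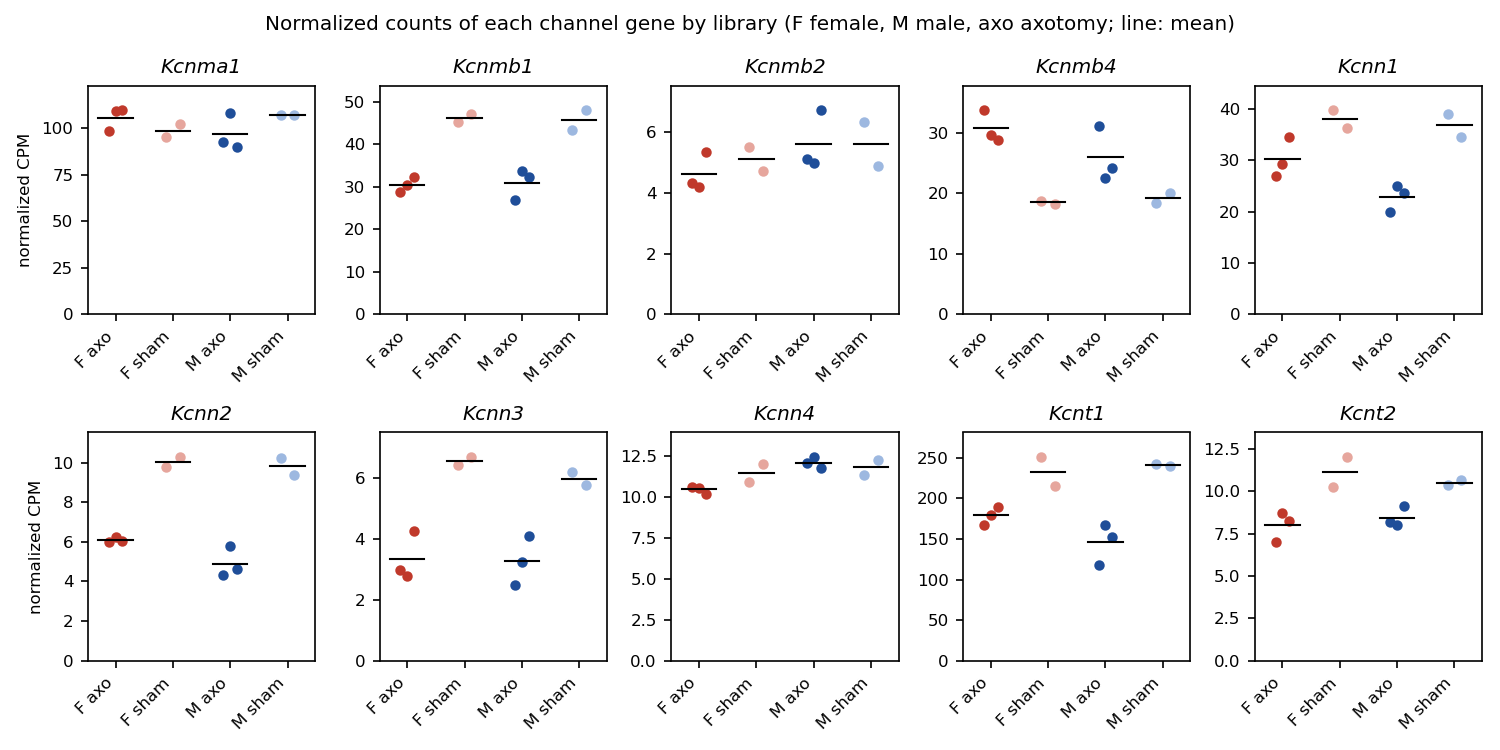
Normalized CPM of each gene in each library, 1 point per library, with the group mean as a line and each vertical axis starting at 0. The axotomy points lie below the sham points of the same sex for Kcnmb1, Kcnn1, Kcnn2, Kcnn3, Kcnt1 and Kcnt2 and above them for Kcnmb4.

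The values below are normalized CPM, counts scaled to the library total after TMM scaling and correction for transcript length, which compare libraries for 1 gene, and are given in replicate order. For the BK channel, 1 beta subunit gene rose, 1 fell, and the third and the pore gene did not pass the threshold. Kcnmb4, the beta subunit typical of neurons, which slows the gating of BK, had 33.7, 29.7 and 28.8 normalized CPM in female axotomy libraries, against 18.7 and 18.2 in female sham libraries. It had 31.0, 22.6 and 24.2 in male axotomy libraries, against 18.4 and 19.96 in male sham libraries. Every axotomy library was above every sham library, and male axotomy 1 was above the other 2 of its group. The log2FC was 0.73 (padj = 0.00678, SE 0.13, edgeR) in females and 0.44 (padj = 0.0257, SE 0.13) in males. In males the call was lost without male sham 1, with log2FC 0.37 and padj = 0.19, and the log2FC was 0.29 (padj = 0.0615) without male axotomy 1. Kcnmb4 shares 693 exon bases with Kcnmb4os2, an antisense gene at 35 to 78 counts per library, which had a log2FC of 0.001 (padj = 0.998) in females and was called higher in males with 0.71 (padj = 0.0549).

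Kcnmb1, the beta subunit known from smooth muscle, where it raises the calcium sensitivity of BK, had 28.9, 30.4 and 32.2 normalized CPM in female axotomy libraries, against 45.3 and 47.2 in female sham libraries. In males it had 26.8, 33.6 and 32.2 after axotomy, against 43.3 and 48.0 after sham. The groups did not overlap in either sex. It fell with a log2FC of −0.60 (padj = 0.00484, SE 0.10, edgeR) in females and −0.56 (padj = 0.00263, SE 0.10) in males, and the call was kept without any 1 of the 10 libraries. Of 8 smooth muscle and pericyte markers, 1 was lower and 1 higher in females, and 3 were lower and 2 higher in males. Their median log2FC was −0.065 in females and −0.071 in males. Their sum, in CPM of library totals without TMM scaling, was 284 to 314 in female axotomy against 242 to 255 in female sham. In males it was 263 to 310 CPM after axotomy against 231 to 257 CPM after sham. The part of these cells in the level of Kcnmb1 was not tested. In the mouse annotation Kcnmb1 lies on chromosome 11 within Kcnip1, a gene of the opposite strand, with which it shares no exon base. Kcnip1, which encodes a calcium-binding subunit of Kv4 potassium channels, had a log2FC of −0.60 (padj = 0.00637, SE 0.11) in females and −0.59 (padj = 0.00266, SE 0.10) in males. The libraries are stranded, and for the quantification the sources used here give no strand setting.

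Kcnma1 had 98.5, 109 and 110 normalized CPM in female axotomy libraries, against 94.96 and 102 in female sham libraries, which overlap. In males it had 92.5, 108 and 90.1 after axotomy, against 107 and 107 after sham, and male axotomy 2 was the library that reached the sham values. The log2FC was 0.10 (95% interval −0.09 to 0.30, padj = 0.488, edgeR) in females and −0.14 (−0.34 to 0.05, padj = 0.247) in males. Without male axotomy 2 the male log2FC was −0.23 (SE 0.07) and was called (padj = 0.0258). Kcnmb2, whose product inactivates BK, was at 4.196 to 5.36 normalized CPM in female axotomy against 4.71 to 5.52 in female sham, and at 5.00 to 6.72 in male axotomy against 4.89 to 6.34 in male sham. Its log2FC was −0.15 (95% interval −0.55 to 0.25) in females and −0.002 (−0.40 to 0.40) in males, and changes within these intervals are not excluded.

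Set within each library, which needs no scaling between libraries, the TPM of Kcnmb4 over that of Kcnma1 was 3.3, 2.62 and 2.54 in female axotomy against 1.9 and 1.72 in female sham, and 3.24, 2.01 and 2.59 in male axotomy against 1.66 and 1.8 in male sham. The ratio of Kcnmb1 to Kcnma1 was 0.701, 0.667 and 0.703 in female axotomy against 1.14 and 1.11 in female sham, and 0.693, 0.742 and 0.855 in male axotomy against 0.967 and 1.07 in male sham. Every axotomy library had more Kcnmb4 and less Kcnmb1 per Kcnma1 than every sham library. These ratios were chosen after the values of the genes were seen and are given as a description, with no test.

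**Figure D3:**
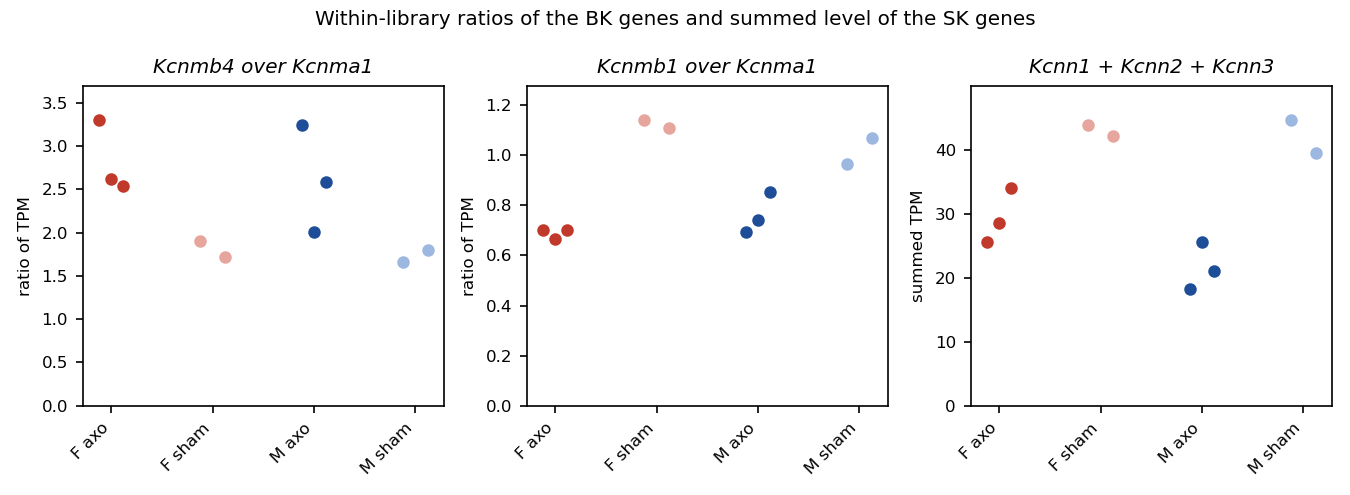
TPM of Kcnmb4 and of Kcnmb1 over that of Kcnma1 (left and middle) and summed TPM of Kcnn1, Kcnn2 and Kcnn3 (right), 1 point per library, with axes from 0. The summed TPM carries no TMM scaling between libraries. The Kcnmb4 ratio lies between 2.01 and 3.3 after axotomy and between 1.66 and 1.9 after sham, and the Kcnmb1 ratio between 0.667 and 0.855 after axotomy and between 0.967 and 1.14 after sham.

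The promoters of the 4 BK genes, which rose, fell or did not pass the threshold, are shown to set their letters beside the values. They are the 250 bases before the start of each gene in RefSeq (GRCm38.p6, 5′ to 3′ on the strand of the gene), with the GC box GGGCGG, in either orientation and counted where boxes overlap, in capitals. RefSeq promoters were found for 8 of the 10 genes, 9 windows in all since Kcnn1 has 2, and Kcnt1 and Kcnn2 had none in the table used.
Kcnmb4, chr10:116473524-116473773, minus strand: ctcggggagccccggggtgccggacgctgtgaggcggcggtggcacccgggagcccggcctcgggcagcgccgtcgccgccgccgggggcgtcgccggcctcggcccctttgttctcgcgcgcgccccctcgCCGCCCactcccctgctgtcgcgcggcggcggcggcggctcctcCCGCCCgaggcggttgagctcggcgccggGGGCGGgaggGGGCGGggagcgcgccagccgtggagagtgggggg
Kcnmb1, chr11:33962763-33963012, plus strand: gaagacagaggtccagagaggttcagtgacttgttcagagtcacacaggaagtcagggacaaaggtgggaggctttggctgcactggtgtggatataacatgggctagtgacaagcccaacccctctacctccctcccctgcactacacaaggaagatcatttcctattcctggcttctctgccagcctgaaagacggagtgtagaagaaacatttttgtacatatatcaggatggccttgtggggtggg
Kcnma1, chr14:24004206-24004455, minus strand: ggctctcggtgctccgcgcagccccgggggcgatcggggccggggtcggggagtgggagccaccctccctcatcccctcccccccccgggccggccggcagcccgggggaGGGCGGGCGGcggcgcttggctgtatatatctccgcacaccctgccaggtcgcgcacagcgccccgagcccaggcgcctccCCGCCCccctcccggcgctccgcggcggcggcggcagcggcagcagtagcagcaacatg
Kcnmb2, chr3:31902453-31902702, plus strand: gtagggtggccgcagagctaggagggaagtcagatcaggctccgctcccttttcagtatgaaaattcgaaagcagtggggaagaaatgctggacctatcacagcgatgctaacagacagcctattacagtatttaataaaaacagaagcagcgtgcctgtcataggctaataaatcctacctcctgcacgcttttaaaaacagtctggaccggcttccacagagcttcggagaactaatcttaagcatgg
The Kcnmb4 window was 83.6% G or C with 43 CpG and 4 GC boxes, and the Kcnma1 window 79.2% with 31 CpG and 3 GC boxes. The Kcnmb1 window was 50.8% with 1 CpG and no GC box, and the Kcnmb2 window 47.2% with 8 CpG and no GC box. The median over all 32851 RefSeq promoters was 52.4% G or C, and 32.7% of them held a GC box. The AP-1 motif TGANTCA (6.75% of all promoters), the CRE TGACGTCA (1.55%) and TATAAA (12.4%), searched on both strands, were in none of the 9 windows of these genes. That says only that these letters are not in the windows.

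All 3 SK genes fell in both sexes. Kcnn2, known for SK channels of central neurons, had 5.99, 6.25 and 6.06 normalized CPM in female axotomy libraries, against 9.77 and 10.3 in female sham libraries. In male axotomy libraries it had 4.30, 5.78 and 4.63, against 10.3 and 9.37 in male sham libraries. The groups lay far apart, and male axotomy 2 was the highest of its group. Kcnn2 had the largest male log2FC of the 10 genes, −0.998 (padj = 0.000874, SE 0.13, edgeR), and −0.72 (padj = 0.00712, SE 0.13) in females, and stayed called without any 1 library.

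Kcnn3, the lowest of the 10 genes, had 2.97, 2.79 and 4.25 normalized CPM in female axotomy libraries, against 6.40 and 6.68 in female sham libraries. In males it had 2.48, 3.22 and 4.08 after axotomy, against 6.19 and 5.75 after sham. The axotomy libraries were all below the sham libraries but differed among themselves more than those of Kcnn2 did in females. The log2FC was −0.97 (padj = 0.0172, SE 0.22, edgeR) in females, the largest female value of the 10 genes, and −0.87 (padj = 0.0114, SE 0.22) in males. Without female sham 2 the female padj was 0.129. With its coding transcript alone, the log2FC was −1.17 (padj = 0.0526, SE 0.35) in females and −1.33 (padj = 0.0147, SE 0.35) in males.

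Kcnn1, the most abundant SK gene in these ganglia, had 26.98, 29.2 and 34.5 normalized CPM in female axotomy libraries, against 39.7 and 36.2 in female sham libraries. In males it had 19.99, 24.9 and 23.5 after axotomy, against 39.0 and 34.6 after sham. In females the highest axotomy library came within 2 normalized CPM of the lowest sham library. The log2FC was −0.33 (padj = 0.0995, SE 0.12, edgeR) in females, at the threshold, and −0.69 (padj = 0.00258, SE 0.12) in males. The female call was kept in 3 of the 10 fits that leave out 1 library, with padj of 0.0358 to 0.362, and was lost with coding transcripts alone (padj = 0.101), whereas the male call was kept in all 10. An opposite-strand gene, A230052G05Rik, shares 132 exon bases with Kcnn1 and had 41 to 144 counts per library, beside 1405 to 2682 for Kcnn1. Its log2FC was −0.29 (padj = 0.535) in females and −0.82 (padj = 0.0467) in males, where it was called lower as Kcnn1 was.

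Together the 3 SK genes summed to 25.6, 28.6 and 34 TPM in female axotomy against 43.8 and 42.1 TPM in female sham, and to 18.3, 25.6 and 21 TPM in male axotomy against 44.6 and 39.5 TPM in male sham. Kcnn1 made up 75.3% to 79.6% of that sum in axotomy libraries and 70.9% to 73.8% in sham libraries. TPM carries no TMM scaling between libraries, so the fall of these sums is not on the scale of the log2FC above. Kcnn4 in males, for example, averaged 10.2 TPM after axotomy against 11.4 TPM after sham, but 12.1 against 11.8 in normalized CPM.

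Kcnn4, the IK channel gene, which is known from red blood cells and immune cells as well as sensory neurons, was not called in either sex. It had 10.6, 10.6 and 10.2 normalized CPM in female axotomy libraries, against 10.9 and 12.0 in female sham libraries. In males it had 12.1, 12.5 and 11.8 after axotomy, against 11.4 and 12.3 after sham. Every female axotomy library was below every female sham library, and the male groups overlapped. The log2FC was −0.13 (95% interval −0.33 to 0.06, padj = 0.36, edgeR) in females and 0.04 (−0.16 to 0.23, padj = 0.784) in males. Erythrocyte markers summed to 687 to 2273 CPM in female axotomy against 1100 to 1523 CPM in female sham, and to 1505 to 5684 CPM in male axotomy against 771 to 847 CPM in male sham. Their part, and that of the macrophage markers above, in the level of Kcnn4 was not tested.

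Both sodium-activated channel genes fell. Kcnt1 had 167, 180 and 190 normalized CPM in female axotomy libraries, against 251 and 215 in female sham libraries. In male axotomy libraries it had 118, 167 and 152, against 242 and 240 in male sham libraries. No axotomy library reached a sham library of the same sex, and male axotomy 1 was the lowest of all. Kcnt1 fell with a log2FC of −0.38 (padj = 0.0762, SE 0.13, edgeR) in females and −0.72 (padj = 0.00262, SE 0.13) in males. The female call was kept in 4 of the 10 fits that leave out 1 library and the male call in all 10. With coding transcripts alone, the log2FC was −0.39 (padj = 0.0454, SE 0.11) in females and −0.71 (padj = 0.00184, SE 0.11) in males.

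Kcnt2 had 6.99, 8.74 and 8.26 normalized CPM in female axotomy libraries, against 10.3 and 12.0 in female sham libraries. In males it had 8.17, 8.04 and 9.14 after axotomy, against 10.4 and 10.7 after sham. The groups did not overlap in either sex. The log2FC was −0.48 (padj = 0.0289, SE 0.12, edgeR) in females and −0.32 (padj = 0.0669, SE 0.12) in males. The call was kept in 9 of 10 fits without 1 library in females (lost without female sham 2, padj = 0.272) and in 6 of 10 in males, with padj of up to 0.207. It was lost without male axotomy 1, without male axotomy 2 and without either male sham library.

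**Figure D4:**
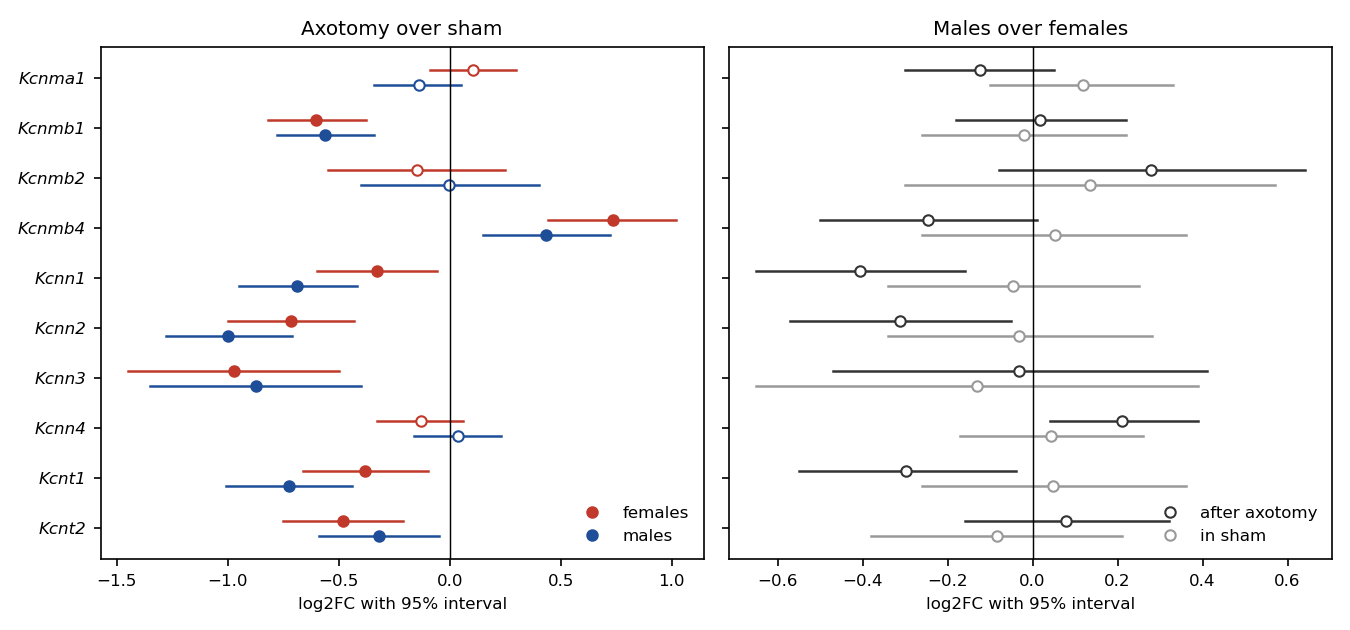
The log2FC of each gene with its 95% interval (t quantile of edgeR's quasi-likelihood fit), axotomy over sham in females and males (left) and males over females after axotomy and in sham (right). Filled points have padj under 0.1, which 7 genes reach in each sex on the left and none on the right.

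No difference between the sexes in the response passed the threshold. In the test of the difference itself, male minus female log2FC, none of the 10 genes was called and none had an unadjusted p under 0.05, beside 0.072% of all genes called and 2366 genes with an unadjusted p under 0.05. The differences closest to it were those of Kcnn1, −0.36 (95% interval −0.74 to 0.02, unadjusted p = 0.0615), Kcnma1, −0.24 (−0.52 to 0.03, unadjusted p = 0.0797), and Kcnt1, −0.34 (−0.75 to 0.06, unadjusted p = 0.0865). DESeq2 called none of the 10 either. Without male axotomy 2, the difference of Kcnma1 was −0.33 (SE 0.10) and was called (padj = 0.0789), and no other gene of the 10 was.

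Comparing males with females after axotomy, none of the 10 genes was called, beside 1.63% of all genes. Unadjusted p values under 0.05 were found for 4 of them, and for 3191 of all genes tested. Kcnn1 had 19.99, 24.9 and 23.5 normalized CPM in male axotomy libraries, against 26.98, 29.2 and 34.5 in female axotomy libraries, with no overlap (log2FC −0.41, padj = 0.129, SE 0.11, edgeR), and DESeq2 called it (padj = 0.0178). Kcnn2 had a log2FC of −0.31 (padj = 0.255, SE 0.12), Kcnt1 of −0.30 (padj = 0.262, SE 0.12) and Kcnn4 of 0.21 (padj = 0.249, SE 0.08). The comparison turned on male axotomy 2. Without it, 4 genes were called as lower in males, Kcnn1 (log2FC −0.47, padj = 0.0347), Kcnn2 (−0.45, padj = 0.0288), Kcnt1 (−0.41, padj = 0.0447) and Kcnma1 (−0.21, padj = 0.0664), and the calls over all genes numbered 3609 in place of 339.

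In sham mice none of the 10 genes was called between males and females, and none had an unadjusted p under 0.05, beside 0.0432% of all genes called and 682 with an unadjusted p under 0.05. DESeq2 called none of them in sham either. The log2FC of the 10 genes in this comparison ran from −0.13 (Kcnn3) to 0.13 (Kcnmb2), with 95% intervals that reached −0.65 and 0.57.

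The 10 genes were fitted again in 2 ways that bring in the makeup of the libraries. Neither measures how far the changes follow that makeup. Of the 12 sensory neuron markers themselves, 8 were lower after axotomy in males. Scaled to the 12 sensory neuron markers in place of TMM, the median log2FC over all genes was 0.27 in males, against 0.04 with TMM, and values shift by about that much. In males 6 of the 10 genes were then called, Kcnmb4 at 0.67 (SE 0.16), Kcnmb1 at −0.33 (SE 0.12), Kcnn1 at −0.46 (SE 0.15), Kcnn2 at −0.78 (SE 0.14), Kcnn3 at −0.63 (SE 0.26) and Kcnt1 at −0.49 (SE 0.14), and Kcnt2 stood at −0.08 (padj = 0.746, SE 0.17). In females 4 of the 10 were called, Kcnmb4, Kcnmb1, Kcnn2 and Kcnn3, and the log2FC of Kcnn1, Kcnt1 and Kcnt2 was −0.32, −0.37 and −0.46 with padj of 0.119 to 0.249. With the mean level of the fibroblast and meningeal markers as a covariate, 7 of 10 genes were called in females and none in males, where 5 genes had an unadjusted p under 0.05. The male log2FC of the 7 genes called with TMM was then −1.19 (SE 0.39) for Kcnn3, −0.68 (SE 0.20) for Kcnn2, −0.60 (SE 0.22) for Kcnn1, −0.57 (SE 0.23) for Kcnt1, −0.46 (SE 0.17) for Kcnmb1, −0.45 (SE 0.22) for Kcnt2 and 0.29 (SE 0.24) for Kcnmb4. All 7 kept their direction, with a larger SE than with TMM alone and padj of 0.12 to 0.557. The sum of these markers did not overlap between axotomy and sham libraries in males (values above) or in females, where it was 739 to 812 CPM after axotomy against 916 to 966 CPM after sham, so within either sex these markers and the injury cannot be told apart.

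**Figure D5:**
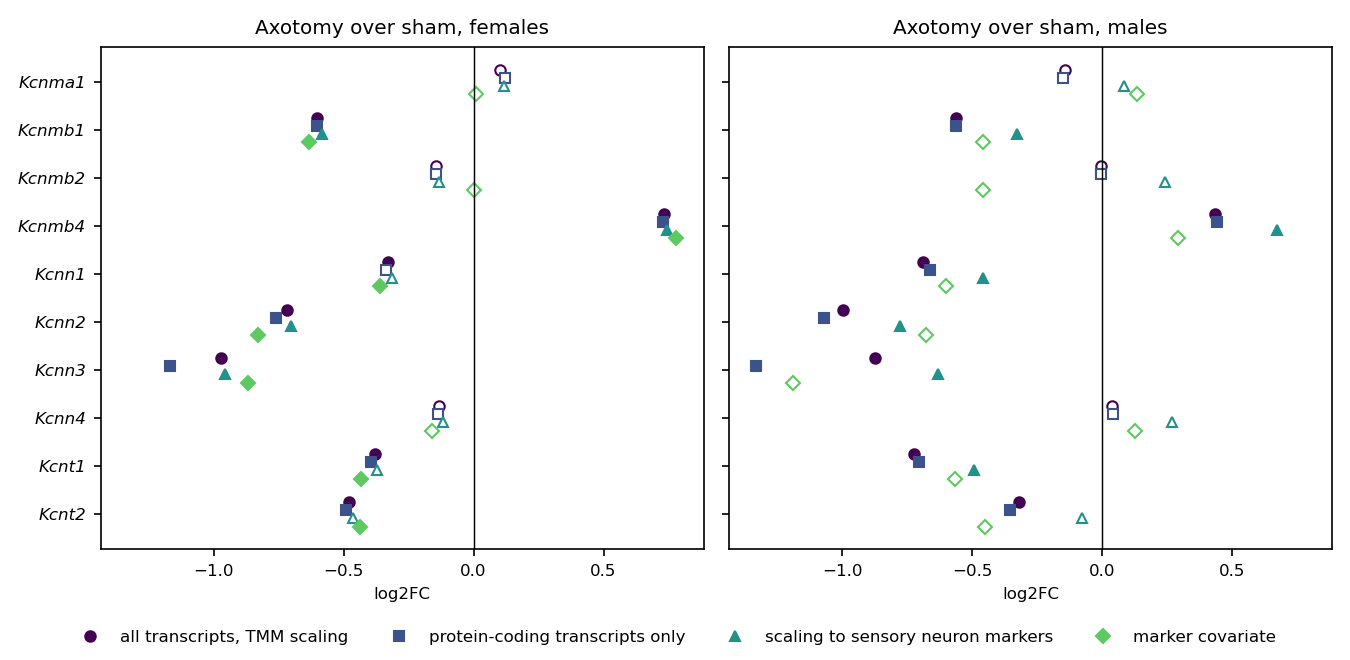
The log2FC of each gene, axotomy over sham, in females (left) and males (right) under 4 ways of computing it, with filled symbols where padj is under 0.1. Kcnmb4 lies right of 0 and Kcnmb1, Kcnn1, Kcnn2, Kcnn3, Kcnt1 and Kcnt2 lie left of 0 under all 4, and in males none of the symbols of the marker covariate is filled.

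Shares of transcripts within a gene were compared for the 19 leading transcripts of 7 genes, those with a mean share of at least 10% and at least 1 other such transcript. None changed at padj under 0.1 by an exact two-sided permutation test within sex (100 arrangements, smallest p possible 0.01), and the lowest padj was 0.136. The unadjusted exact p was under 0.05 for 4 of them. The retained-intron transcript Kcnt1-206 made up 11.6% to 13.2% in female axotomy against 13.7% to 14.3% in female sham, and 11% to 12.3% in male axotomy against 12.7% to 13.9% in male sham (exact p = 0.02). The coding transcript Kcnn2-205 made up 14.9% to 22.9% in female axotomy against 21.6% to 23.3% in female sham, and 16.4% to 22.1% in male axotomy against 28.8% to 32.1% in male sham (exact p = 0.03). The others were Kcnt2-201 (exact p = 0.03) and Kcnn1-204 (exact p = 0.04). Leaving out 1 axotomy library gave between 1 and 8 such transcripts, with 8 of them without female axotomy 3. These fits have 60 arrangements in place of 100, so their p values move in coarser steps. Leaving out a sham library leaves 1 in its group and 40 arrangements, too few to tell whether a share depends on that library. Without female axotomy 3 the lowest padj was 0.0792, under the threshold, and with shares of estimated counts it was 0.1.

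Genes of the activating ions, of channel partners and of related channels were counted in fixed lists. Each list count is to be read beside the shares over all genes tested. These were 9.7% lower and 10.5% higher in females, and 19.4% lower and 22.6% higher in males. The median log2FC over all genes was −0.001 in females and 0.04 in males. List counts near these shares say nothing particular of the list. Of 10 voltage-gated sodium channel pores and NALCN, the sodium side of Slack and Slick, 6 were lower and none higher in females, and 9 were lower and none higher in males, with a median log2FC of −0.46 and −0.64. Scn1a, a pore of large myelinated sensory neurons, had a log2FC of −0.996 (padj = 0.0108, SE 0.19, edgeR) in females and −1.11 (padj = 0.00277, SE 0.19) in males. Scn8a, the main pore at nodes of Ranvier, had −0.77 (padj = 0.0338, SE 0.20) and −1.14 (padj = 0.00289, SE 0.20), and the low Scn4a (1.82 TPM), known from skeletal muscle, −0.71 (padj = 0.016, SE 0.16) and −1.31 (padj = 0.000613, SE 0.15). Of 10 voltage-gated calcium channel pores, 1 was lower and none higher in females, and 5 were lower and 1 higher in males, with a median log2FC of −0.27 and −0.36.

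Among 15 genes of calcium stores, store-operated entry and calcium pumps of the plasma membrane, 2 were higher and 4 lower in females. In males 2 were higher and 6 lower. The plasma membrane pumps carry calcium out of the cell, so this list is not 1 of calcium supply alone. Ryr2, a calcium release channel of the endoplasmic reticulum, had a log2FC of −0.68 (padj = 0.0465, SE 0.20, edgeR) in females and −1.04 (padj = 0.00359, SE 0.20) in males, and Atp2b2, a calcium pump of the plasma membrane, −0.91 (padj = 0.0433, SE 0.25) and −1.51 (padj = 0.00258, SE 0.25). Of 9 genes of calmodulin, casein kinase 2 and protein phosphatase 2A, parts of the SK channel complex, 1 was higher and none lower in females, and 3 were higher and 4 lower in males.

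Of 12 genes listed as interactors and regulators of BK and Slack, 2 were higher and 4 lower in females, and 2 were higher and 8 lower in males. The 2 higher genes were Cnbp and Cacna2d1 in both sexes, and a tie of Cnbp to these channels was not tested. Lingo1, a leucine-rich repeat protein of neurons, had a log2FC of −0.61 (padj = 0.0167, SE 0.13, edgeR) in females and −1.17 (padj = 0.000554, SE 0.13) in males. Of 6 genes of BK gamma subunits, a further beta subunit and the related channel Slo3 (Kcnu1), 3 passed the filter. Lrrc38, a gamma subunit gene at only 0.148 TPM, was higher in females (log2FC 1.97, padj = 0.0925, SE 0.70) and males (2.24, padj = 0.0287, SE 0.69). The gamma subunit genes Lrrc26 and Lrrc52 and the beta subunit gene Kcnmb3 had at most 7 counts in any library. Of 9 calcium-activated chloride and cation channels, 1 was higher and none lower in females, and 2 were higher and 2 lower in males. No gene of these 7 lists was called for the difference between the sexes, beside 0.072% of all genes tested, so this says nothing particular of the lists.

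The genes whose log2 CPM ran most like that of the 3 most abundant members over the 10 libraries are given as a description, since the libraries share the 4 groups. For Kcnt1 they were Sprn (Pearson r = 0.993), the diacylglycerol kinase gene Dgkz (0.991) and the mitochondrial calcium uniporter gene Mcu (0.989), for Kcnmb4 Gm6460 (0.989), Chmp4b (0.987) and Rab33a (0.986), and for Kcnn1 Exoc2 (0.987), Nipsnap1 (0.981) and Phactr3 (0.979).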

How the data were processed

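RNA-seq of 10 DRG libraries was used, with groups and replicate numbers from the sample labels. Per the labels, the authors made stranded poly-A libraries and trimmed reads with Trimmomatic 0.39. They deposited estimated counts, effective lengths and TPM per transcript of Gencode M27 from Salmon 1.3.0. These were added up over the transcripts of a gene and rounded. Groups were compared with edgeR 4.0.16 under R 4.3.3 (filterByExpr minimum count 10, TMM, effective length as offset, 4 group means, robust quasi-likelihood F test, Benjamini-Hochberg over 20836 genes). The fit was tried on simulated counts with the same spread for all genes, equal lengths and changes in female axotomy alone. That setting is simpler than the data and does not cover a library that stands apart. SE is the log2FC over the root of F. TPM was summed per gene to compare levels. In each library 3 counts equal 0.0333 to 0.0543 CPM, counting error only. The Benjamini-Hochberg method was also used over the 19 transcripts of the share test.

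The members and lists were chosen with earlier results of these data known. All 10 genes are named. List genes are named if called in both sexes in 1 direction with log2FC over 0.58 in size, at most 3 a list. Cnbp and Cacna2d1 are named besides, as the higher genes of their list. Alternatives were DESeq2 1.42.0, RLE scaling, no filter, no length offset, only the libraries compared, a replicate block, neuron scaling, a marker covariate, leaving out each library and, chosen after seeing the data, coding transcripts alone. The RUVseq and removeBatchEffect steps of the study were not repeated, since the sources used here give no settings for them. Promoters came from RefSeq GRCm38.p6 and gene overlaps from Gencode M21, another build than that of the counts, so no coordinates of the counts are given.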

Additional observations from a re-analysis of the deposited data

How the results depend on the processing

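How many of the 10 genes were called in each sex depended in part on the setting and on the library left out. In females 7 genes were called, and 4 with scaling to the sensory neuron markers, 6 with coding transcripts alone and 3 to 7 without 1 library (3 without female sham 2). In males 7 were called, none with the marker covariate, 6 with neuron scaling and 5 to 7 without 1 library. For the difference between the sexes the count was 0, and 0 to 1 without 1 library. For males against females after axotomy it was 0, with 1 for no filter on low counts, 1 for DESeq2 (Kcnn1 in both) and 0 to 4 without 1 library (4 without male axotomy 2). In sham it was 0 under every alternative run. No called log2FC of the 10 genes changed direction under any alternative. Of 940 values of single genes under alternatives, 900 kept their side of the threshold, 32 lost the call and 8 gained it. These values include the comparisons between the sexes, where no gene was called at first and no call could be lost. All 32 lost calls were in axotomy against sham. The count of leading transcripts with exact p under 0.05 was 4, and 1 to 8 without 1 axotomy library. Those fits have 60 arrangements in place of 100, and their lowest padj was 0.0792, without female axotomy 3.

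The count of all genes called moved more. In females it was 4216, and 2468 with neuron scaling, 6329 with the marker covariate and 838 without female sham 2. In males it was 8743 (4704 higher), 9026 (7400 higher) with neuron scaling and 989 with the marker covariate. For the difference between the sexes it was 15, 536 by DESeq2, 186 with no filter, 88 with the replicate block and 2204 without male axotomy 2. After axotomy the difference between males and females was called for 339 genes, 1208 by DESeq2, 610 with no filter, 641 with the replicate block, 181 with neuron scaling, 11 with the marker covariate and 40 with only the libraries compared. In sham it was 9, 32 by DESeq2 and 32 with only the libraries compared. The cause of these moves was not tested.

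Whether replicate numbers pair the libraries was not settled. Over 13 pairs with the same number the correlation of deviations was −0.12 to 0.27, over 0.1 in 4. It was not computed for pairs with different numbers, so these values have no reference. With the replicate block 7 of the 10 genes were called in females and 7 in males, and 0 in each of the 3 comparisons between the sexes. For the difference between the sexes a fit with only the libraries compared uses all 10 and gives no other value. Sham groups of 2 libraries limit every comparison with them.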
